A study of Mus musculus with 5 samples.

Results

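Interferon-stimulated genes are the genes that a cell switches on when an interferon binds its receptor. The 40 genes described here are a textbook set of them, taken from a list of names with earlier results of these data known. All 40 were found by symbol among the 50867 genes of the table. Of these, 39 had a read in at least 1 library and CMPK2 had none. The set was read in 5 RNA libraries labelled as Ba/F3, a mouse pro-B cell line that needs interleukin-3 to grow. Each library came from cells infected with a lentivirus, and the libraries are labelled PMSCV, WT, WT_K118R, S_PXT1 and S_PXT1_K118R. PMSCV names a retroviral vector and is the reference here. K118R names a change of lysine to arginine, and the labels do not spell out WT and S. All 5 groups share the cell line and the infection, and the sources used here give no uninfected cells, passage or time after infection. With 1 library a group there is no replicate behind any difference, no p-value is given, and nothing says whether the cultures were made separately.

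Type I interferons bind a receptor pair with the kinases JAK1 and TYK2, and a complex that holds STAT2 and IRF9 then binds the interferon-stimulated response element. Interferon gamma has a receptor of its own and leads to IRF1 and the guanylate-binding proteins. The products of the induced genes degrade viral RNA, block viral entry and release, attach the ubiquitin-like ISG15 to proteins, or draw T cells as chemokines. A low level of some of these genes without added interferon is common in blood cells.

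The response element holds a pair of GAAA repeats set apart by a pair of bases, and it was looked for near the mouse starts of the members. The letters searched were GAAANNGAAA and, for the other strand, TTTCNNTTTC, with overlapping matches allowed, from 250 bases before to 50 after each RefSeq start (build GRCm38.p6, 300 bases). Of the 40 members, 25 had such a window, and 10 of these 25 held a match in at least 1 window. Over all 27025 genes with a window, 1079 (3.99%) held one. The stretches below show the pair in 6 members, to make visible how the same repeat recurs in different members and on either strand; capitals mark the GAAA or TTTC repeats, each sequence runs 5′ to 3′ in the direction of its gene, and 10 bases stand on either side.
Isg15 (chr4:156200865-156200906, minus strand): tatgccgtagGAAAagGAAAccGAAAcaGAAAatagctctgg
Ifit1 (chr19:34640775-34640823, plus strand): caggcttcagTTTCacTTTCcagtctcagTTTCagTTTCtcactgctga
Oas3 (chr5:120777715-120777744, minus strand): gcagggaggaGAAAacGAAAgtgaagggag
Rsad2 (chr12:26456553-26456582, minus strand): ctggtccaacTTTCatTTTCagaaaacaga
Stat2 (chr10:128270266-128270295, plus strand): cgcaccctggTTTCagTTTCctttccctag
Cxcl10 (chr5:92349083-92349112, minus strand): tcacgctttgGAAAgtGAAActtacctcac

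With the start at 0, Isg15 held 3 overlapping matches that began at -78, -72 and -66, so that 4 repeats stand in a row. Ifit1 held 2 separate matches, at -104 and -85. The single matches of Oas3, Rsad2, Cxcl10 and Stat2 began at -75, -120, -213 and -222. Ifit3, Bst2, Ifih1 and Ifitm3 were the other 4 members with a match. The windows of 15 members, Cxcl9, Irf1 and Irf7 among them, did not hold these letters. A match describes the sequence and is no measure of binding.

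**Figure D1:**
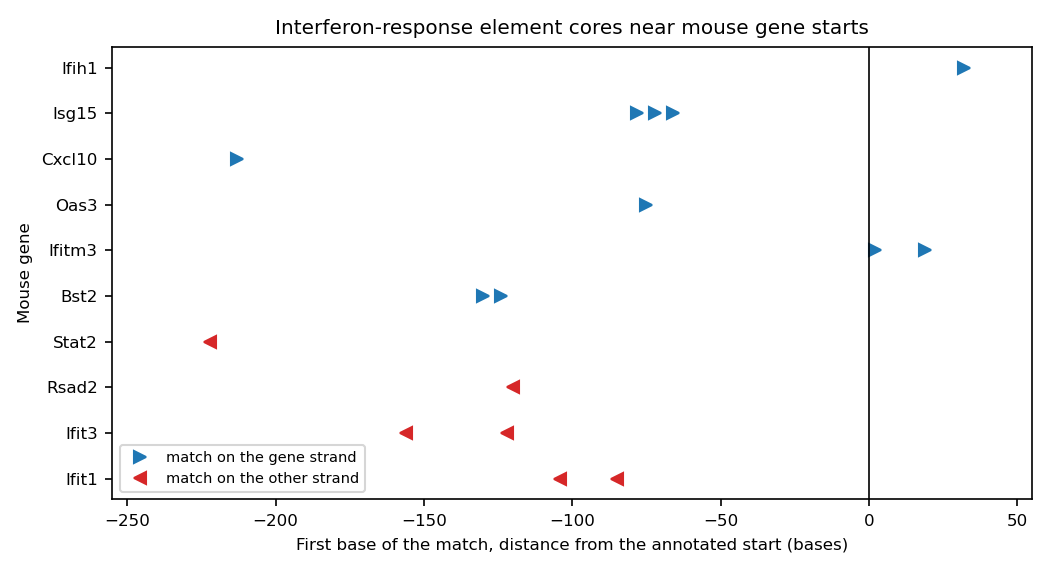
Position of each match to the response-element letters near the RefSeq starts of members, in bases from the annotated start (0) on the horizontal axis. There is 1 line per mouse gene with a match, and members with a window but no match are not drawn. Matches lie in 10 of the 25 members, and most of them fall before the start.

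Some features of the libraries touch every value below. The total count was 266905 in PMSCV, 351693 in WT, 347661 in WT_K118R, 259047 in S_PXT1 and 250409 in S_PXT1_K118R, and a single member never had more than 15 reads. The 2 S_PXT1 libraries stand apart: 7393 and 7044 genes had a read there, against 11492 to 11712 in the other 3. The table lists human gene models for mouse cells, so a count is the number of reads the authors assigned to a human model, and its coordinates are human, of a build that the sources do not name. Levels are given as CPM, counts divided by the scaled library size. A count of 0 is read as up to 3 counts, which is 8.77 to 11.8 CPM. A fold given as at least sets the 0 to 3 counts and takes the other count as exact. It is thus no statistical limit, and the interval beside it, from the count of 0 itself, can start lower. In RNA from bulk cultures, fewer cells of a type and less RNA per cell cannot be told apart. Defining markers of the labelled pro-B cell were not read: of 18 pro-B and progenitor genes, 9 had no read in any library. Among them were CD79A, CD79B, VPREB1, IGLL1 and IL3RA. A count of 0 on a human model need not mean that the mouse gene was silent. How mouse reads fall on human models was not tested, for these genes or for the members. Most reads of that list came from GATA2 and SPI1, which other blood cells share. The prostate gene KLK3 had 51, 62 and 71 reads in PMSCV, WT and WT_K118R, and the antibody gene IGHG1 had 310 in PMSCV. The data thus go against the label in part, and it is in doubt which cells the reads came from.

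Summed over the 40 genes, the signal was highest in WT_K118R and lowest in the 2 S_PXT1 libraries. The sum was 79 reads in PMSCV, 41 in WT and 136 in WT_K118R, and only 15 in S_PXT1 and 11 in S_PXT1_K118R. Scaled, this was 281 CPM in PMSCV (exact 95% Poisson interval 222 to 350), 120 CPM in WT (86.0 to 163) and 403 CPM in WT_K118R (338 to 477). It was 58.5 CPM in S_PXT1 (32.7 to 96.5) and 43.2 CPM in S_PXT1_K118R (21.6 to 77.4). The intervals of the last 2 libraries overlap each other, and those of PMSCV and WT_K118R and of WT and S_PXT1 overlap narrowly. All intervals here and below cover counting error only, since each group has 1 library. They treat reads as separate molecules. PCR copies were not marked by molecular identifiers, so the intervals can be too narrow even for that error. The number of members with a read followed the same order, with 27 in PMSCV, 16 in WT, 29 in WT_K118R, 6 in S_PXT1 and 3 in S_PXT1_K118R.

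**Figure D2:**
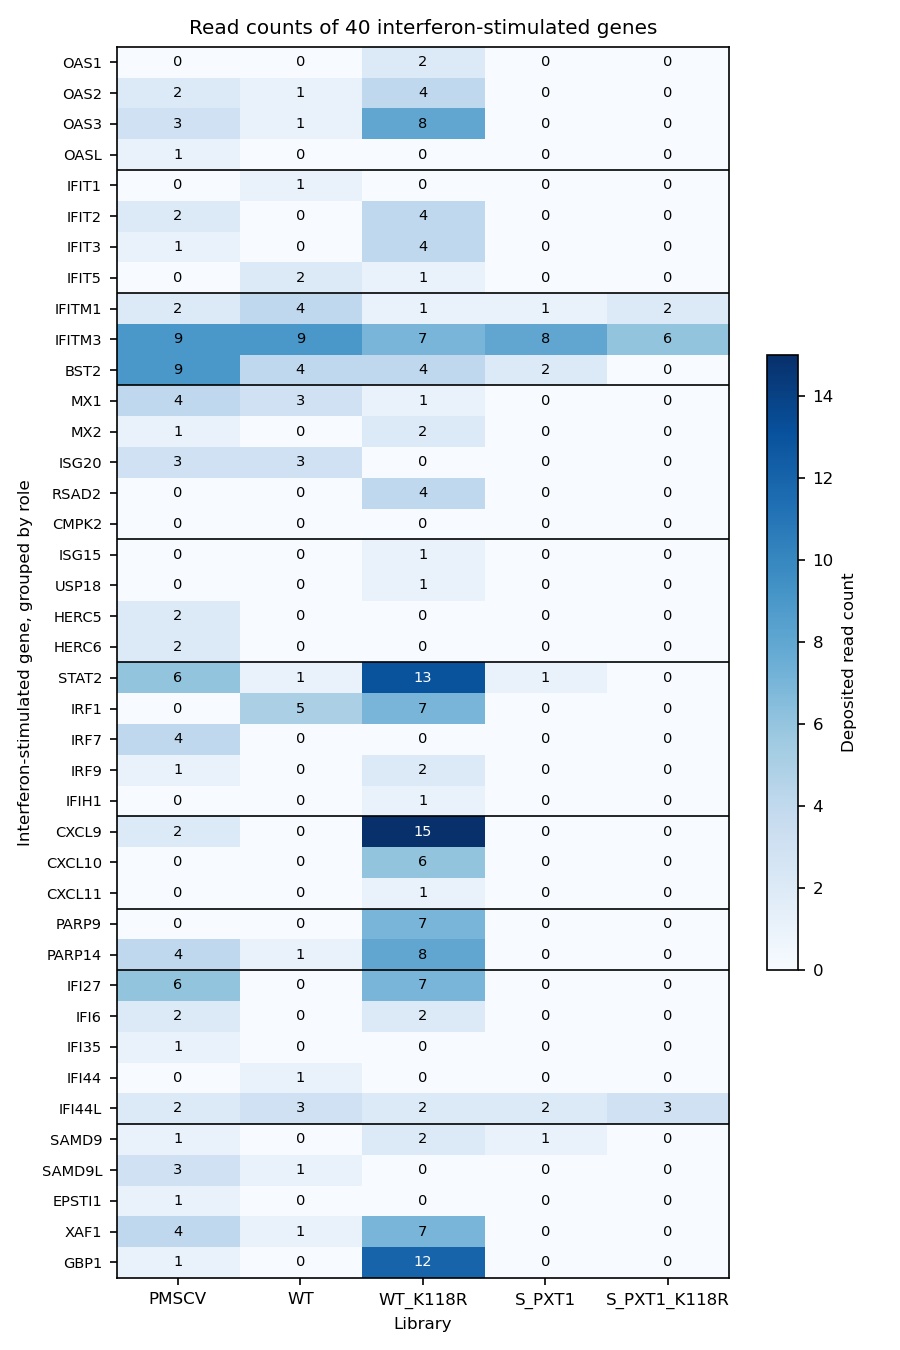
Read count of each of the 40 genes (lines, grouped by role) in each of the 5 libraries (columns), with the count printed in its cell and darker cells for higher counts. IFITM3 has 6 to 9 reads in every library, while the highest counts, CXCL9 at 15, STAT2 at 13 and GBP1 at 12, all stand in WT_K118R.

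The members that act at membranes were read in nearly all libraries. IFITM3, which blocks virus fusion with the cell, had the most reads of all members. Its counts were 9 in PMSCV, 9 in WT, 7 in WT_K118R, 8 in S_PXT1 and 6 in S_PXT1_K118R, or 20.7 to 32.0 CPM. No library stood out, and the ratio of S_PXT1 over PMSCV was 0.97 (exact 95% interval 0.327 to 2.85). Per gene length IFITM3 also had the highest mean of the members, 12.5 FPKM over the 5 libraries. Its model (ENSG00000142089, chromosome 11, 319669 to 327537) overlaps others on the same strand. IFITM1, its neighbour in the same family, had 2, 4, 1, 1 and 2 reads in PMSCV, WT, WT_K118R, S_PXT1 and S_PXT1_K118R, and shares sequence positions with IFITM2 in the table. BST2 (ENSG00000130303, chromosome 19, 17402939 to 17405648), which tethers budding virus to the cell surface, was less even. It had 9 reads in PMSCV, 4 in WT, 4 in WT_K118R, 2 in S_PXT1 and 0 in S_PXT1_K118R. PMSCV was thus its highest library, and BST2 was at least 2.71-fold lower in S_PXT1_K118R than in PMSCV (interval from 1.79). The 3 genes together gave 20, 17, 12, 11 and 8 reads in the same order, and the interval of the sum held 1 in all 8 comparisons. IFITM3 made up 11.4% of all member reads in PMSCV and 53.3% and 54.5% in S_PXT1 and S_PXT1_K118R.

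The enzymes OAS1, OAS2 and OAS3 make a short adenylate chain that switches on RNase L against viral RNA. With OASL of the same family, the 4 genes together had 6 reads in PMSCV, 2 in WT and 14 in WT_K118R, with 0 in both S_PXT1 libraries. The sum was 7.09-fold higher in WT_K118R than in WT (1.63 to 64.3). It was at least 3.52-fold lower in S_PXT1_K118R than in WT_K118R (interval from 2.50). OAS3 gave most of this, with 3, 1, 8, 0 and 0 reads in PMSCV, WT, WT_K118R, S_PXT1 and S_PXT1_K118R. The IFIT proteins bind viral RNA caps and stop its translation, and their 4 genes had 3, 3, 9, 0 and 0 reads in that order. The ratio of WT_K118R over WT for IFIT, 3.04, had an interval from 0.759 to 17.5 and so held 1. The opposite-strand gene LIPA overlaps IFIT1, IFIT2 and IFIT3 in the table. The sources do not give the strand setting of the counting, so reads of such pairs cannot be told apart.

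Among the other direct effectors, MX1 and MX2 are dynamin-like GTPases that trap viral particles, ISG20 is an exonuclease and RSAD2 (viperin) makes a chain-ending nucleotide. With CMPK2 they had 8 reads in PMSCV, 6 in WT and 7 in WT_K118R, with 0 in both S_PXT1 libraries. PMSCV, WT and WT_K118R lay close together here, and WT_K118R over WT was 1.18 (0.340 to 4.26). The sum was at least 2.43-fold lower in S_PXT1 than in PMSCV (interval from 1.56). All 4 reads of RSAD2 stood in WT_K118R. ISG15 conjugation was hardly read: ISG15, its protease USP18 and the ligases HERC5 and HERC6 together had 4 reads in PMSCV, 0 in WT and 2 in WT_K118R, with 0 in both S_PXT1 libraries.

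The factors that carry the signal to the nucleus had their highest sum in WT_K118R. STAT2 (ENSG00000170581, chromosome 12, 56341597 to 56360155), which acts with IRF9, had 6 reads in PMSCV, 1 in WT, 13 in WT_K118R, 1 in S_PXT1 and 0 in S_PXT1_K118R. WT_K118R was highest, and its ratio over WT was 13.2 with a wide interval (1.98 to 560). IRF1, a factor induced by interferon gamma, had 0 reads in PMSCV, 5 in WT and 7 in WT_K118R, with 0 in both S_PXT1 libraries. IRF7, which amplifies the response, had 4 reads in PMSCV and 0 in each of the other 4. The interval of IRF7 held 1 in each of its comparisons, so no direction is established for it. With IRF9 and the RNA sensor IFIH1, these genes had 11, 6, 23, 1 and 0 reads in PMSCV, WT, WT_K118R, S_PXT1 and S_PXT1_K118R. Their sum in S_PXT1_K118R was at least 3.32-fold below PMSCV (interval from 2.27) and at least 5.78-fold below WT_K118R (interval from 4.33).

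The chemokines were read almost wholly in WT_K118R. CXCL9, CXCL10 and CXCL11, neighbours on human chromosome 4 (76001275 to 76041415), bind CXCR3 on activated T cells. CXCL9 had 2 reads in PMSCV, 0 in WT and 15 in WT_K118R, with 0 in both S_PXT1 libraries. WT_K118R was therefore 6.25-fold above PMSCV (1.45 to 56.3) and at least 5.07-fold above WT (interval from 3.63). CXCL10, with 6 reads, and CXCL11, with 1, were read in WT_K118R alone. The opposite-strand gene ART3 overlaps CXCL10 and CXCL11, and the opposite-strand SDAD1-AS1 overlaps CXCL9. CXCL11 also overlaps a same-strand model. The sum of the 3 chemokines was 22 reads in WT_K118R against 2 in PMSCV, a ratio of 9.17 (2.25 to 80.4). It was at least 7.43-fold higher in WT_K118R than in WT (interval from 5.55). Per gene length, CXCL9 at 15.7 FPKM and CXCL10 at 14.7 FPKM stood above IFITM3 at 9.40 FPKM in WT_K118R.

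PARP9 and PARP14 belong to the ADP-ribosyltransferase family. PARP14 had 4 reads in PMSCV, 1 in WT and 8 in WT_K118R, with 0 in both S_PXT1 libraries, and all 7 reads of PARP9 stood in WT_K118R. The opposite-strand neighbour DTX3L overlaps PARP9. Together the pair was 15.2-fold higher in WT_K118R than in WT (2.34 to 640), from 15 reads against 1. GBP1 (ENSG00000117228, chromosome 1, 89052319 to 89065360), a GTPase that coats intracellular pathogens, had 1 read in PMSCV, 0 in WT and 12 in WT_K118R, with 0 in both S_PXT1 libraries. It was higher in WT_K118R than in PMSCV, from 12 reads against 1, and the interval of this ratio ran from 1.48 to 428. XAF1, a pro-apoptotic gene, had 4, 1, 7, 0 and 0 reads in PMSCV, WT, WT_K118R, S_PXT1 and S_PXT1_K118R. With SAMD9, SAMD9L and EPSTI1 these genes summed to 10, 2, 21, 1 and 0 reads in that order. WT_K118R was 10.6-fold above WT on this sum (2.60 to 93.6), while WT was below PMSCV at a ratio of 0.16 (0.018 to 0.772).

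The IFI genes did not share a pattern. IFI27 had 6 reads in PMSCV, 0 in WT and 7 in WT_K118R, with 0 in both S_PXT1 libraries. It was at least 2.43-fold lower in WT than in PMSCV (interval from 1.43). IFI44L, in contrast, was read in every library, with 2 reads in PMSCV, 3 in WT, 2 in WT_K118R, 2 in S_PXT1 and 3 in S_PXT1_K118R. Only IFI44L, IFITM1 and IFITM3 of the 40 genes had a read in all 5 libraries. No ratio of these 3 had an interval that left out 1 in any of the 8 comparisons, though at these counts the intervals are wide.

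**Figure D3:**
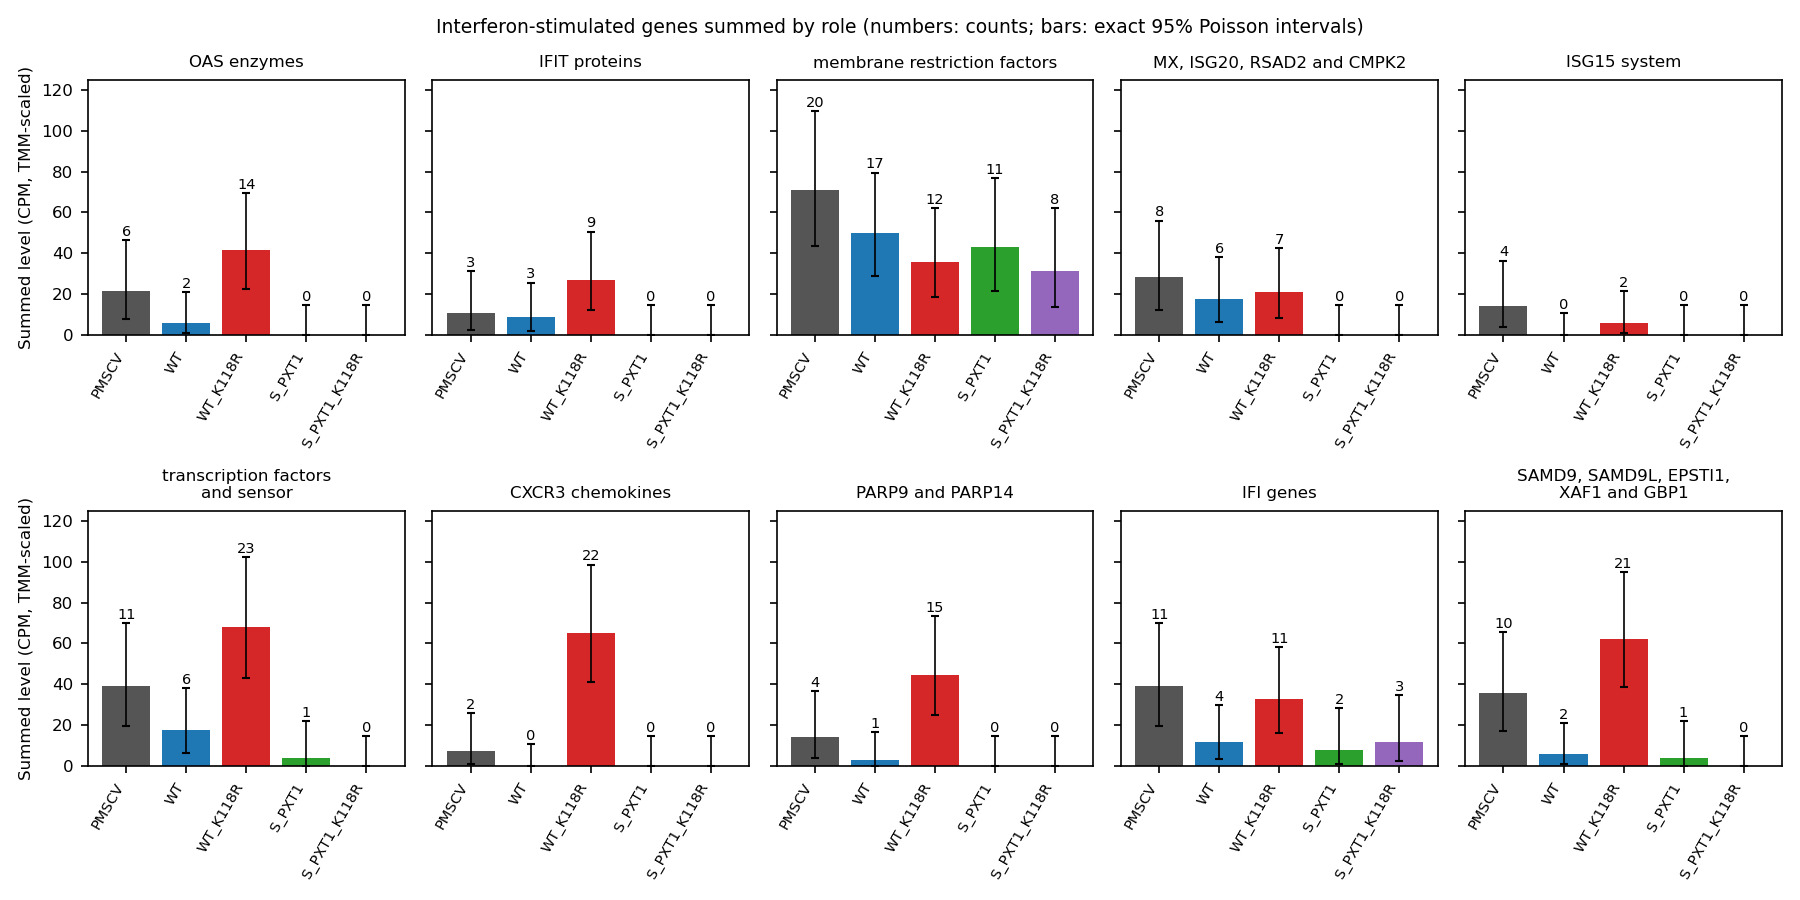
Summed level of each of the 10 role groups in each library in CPM, with exact 95% Poisson intervals as bars. In WT_K118R the chemokines reach 65.2 CPM, while the membrane group is the group with the highest level in both S_PXT1 libraries, at 42.9 and 31.4 CPM.

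Most members had no read in the 2 S_PXT1 libraries: 34 of the 40 had none in either, CMPK2 included. The 6 with a read were IFITM1, IFITM3, BST2, STAT2, IFI44L and SAMD9. Genes at 0 are common in these libraries, so members were set beside all genes with as many reads in the other 3. Of members with 1 to 4 such reads, 19 of 20 were at 0, against 67.7% of all genes. With 5 to 9 reads it was 7 of 9 members against 47.2%, and with 10 to 19 reads 7 of 8 against 28.9%. Neither of the 2 members with 20 to 39 reads, IFITM3 and STAT2, was at 0, against 12.9% of all genes.

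The library with a member's highest level is given beside that of all genes. At a mean of 1 CPM or more over the 5 libraries, 30 of the 40 members and 13352 genes in all enter such counts. A member with few reads can enter through the 1 library where it is high, so these counts describe and do not test. WT_K118R was highest for 17 of the 30, against 24.0% of all genes, and PMSCV for 10, against 28.6%. WT was highest for 2 members, against 20.6%. S_PXT1_K118R was highest for 1 member, IFI44L, against 15.1%, and S_PXT1 for 0, against 11.7%.

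Both S_PXT1 libraries were far below PMSCV. The member sum in S_PXT1 was 0.21 of that in PMSCV (0.111 to 0.364), or 4.80-fold lower. At a 2-fold difference on log2(CPM + 1), 20 of the 30 members were lower, against 43.8% of all genes, and 0 were higher, against 8.64%. On this scale 1 read against 0 passes 2-fold, although a 0 is read as up to 3 counts. Such calls, here and below, can thus rest on single reads. The interval left out 1 for 1 member, IFI27, against 10.8% of all genes. In S_PXT1_K118R the member sum was 0.15 of PMSCV (0.074 to 0.291). There 21 members were lower, against 44.9%, and 0 higher, against 8.39%, and the interval left out 1 for 3, BST2, STAT2 and IFI27, against 10.9%. The median log2 difference of the 30 members was -2.19 and -3.02, beside -0.56 and -0.61 for all genes. These comparisons share the PMSCV library, and each of the 8 comparisons shares libraries with others. Without IFITM3 the sum ratios were 0.11 (0.043 to 0.238) and 0.079 (0.025 to 0.193), and on summed FPKM the first was 0.32.

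In the WT library most entering members were also below PMSCV. The member sum was 0.43 of PMSCV (0.285 to 0.630), 19 of 30 members were 2-fold lower against 23.2% of all genes, and 2 were higher against 20.3%. The interval left out 1 for IFI27 alone, against 5.44% of all genes. The median was -1.76 for members and -0.03 for all genes. Of the 40 genes, 15 were read in PMSCV and not in WT, and 4 the other way round.

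WT_K118R over PMSCV was mixed. The sum was 1.43-fold higher (1.08 to 1.92), but the interval held 1 when libraries were scaled by total counts (0.994 to 1.77). Of the 30 members, 10 were 2-fold higher against 19.9% of all genes, and 8 were lower against 24.0%. The interval left out 1 for IRF1, CXCL9, PARP9 and GBP1, all higher, against 6.07% of all genes. The median was 0.60 for members and -0.05 for all genes. Without 7 genes picked after their values were seen (STAT2, CXCL9, CXCL10, CXCL11, GBP1, PARP9 and PARP14) the ratio was 0.93 (0.661 to 1.32). Those 7 made up 45.6% of the member reads in WT_K118R and 16.5% in PMSCV.

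The K118R change was compared within each construct. WT_K118R over WT had the largest rise of the 8 comparisons, a member sum 3.36-fold higher (2.36 to 4.89). At 2-fold, 18 of the 30 members were higher against 19.2% of all genes, and 4 were lower against 20.9%. The 4 were IFITM1, MX1, ISG20 and SAMD9L, with 4, 3, 3 and 1 reads in WT against 1, 1, 0 and 0 in WT_K118R. The interval left out 1 for 8 members, against 5.7% of all genes: OAS3, STAT2, CXCL9, CXCL10, PARP9, PARP14, IFI27 and GBP1, all higher. The median was 2.65 for members and 0.01 for all genes. Of the 40, 17 were read in WT_K118R and not in WT, and 4 the other way round. Without the same 7 genes the sum was 1.92-fold higher (1.29 to 2.91). S_PXT1_K118R over S_PXT1, which shares no library with it, had a sum ratio of 0.74 (0.307 to 1.72). Here 0 members were 2-fold higher against 15.2% of all genes, 3 were lower against 17.6%, and the interval left out 1 for 0 members against 3.54%. The 3 lower members had 2, 1 and 1 reads in S_PXT1 and 0 in S_PXT1_K118R. With 15 and 11 reads, a difference was not detectable at this depth.

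Set against the matching WT library, the member sum was lower in S_PXT1 in both pairs. In the first pair, however, members were 2-fold lower less often than all genes. The member sum of S_PXT1 was 0.49 of WT (0.251 to 0.900). It was 0.29 without IFITM3 (0.109 to 0.673), 0.29 without the members that overlap a same-strand model (0.097 to 0.703), and 0.71 on summed FPKM. Of the 30 members, 10 were 2-fold lower against 42.5% of all genes, and 1 was higher against 9.02%. The interval left out 1 for 0 members, against 8.61%, and the median was 0.00 beside -0.48 for all genes. This pair is limited by WT itself, where only 16 of the 40 were read. S_PXT1_K118R was 9.32-fold below WT_K118R on the sum (5.05 to 19.1), with 22 members lower against 44.0% of all genes and 1 higher against 8.94%. Without IFITM3 the sum was 19.5-fold lower (8.12 to 60.9), and without the same-strand overlaps 31.4-fold lower (10.5 to 154). On summed FPKM its ratio was 0.18. The interval left out 1 for 9 members against 8.87%: OAS3, STAT2, IRF1, CXCL9, PARP9, PARP14, IFI27, XAF1 and GBP1, all lower. The median was -3.24, beside -0.49.

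**Figure D4:**
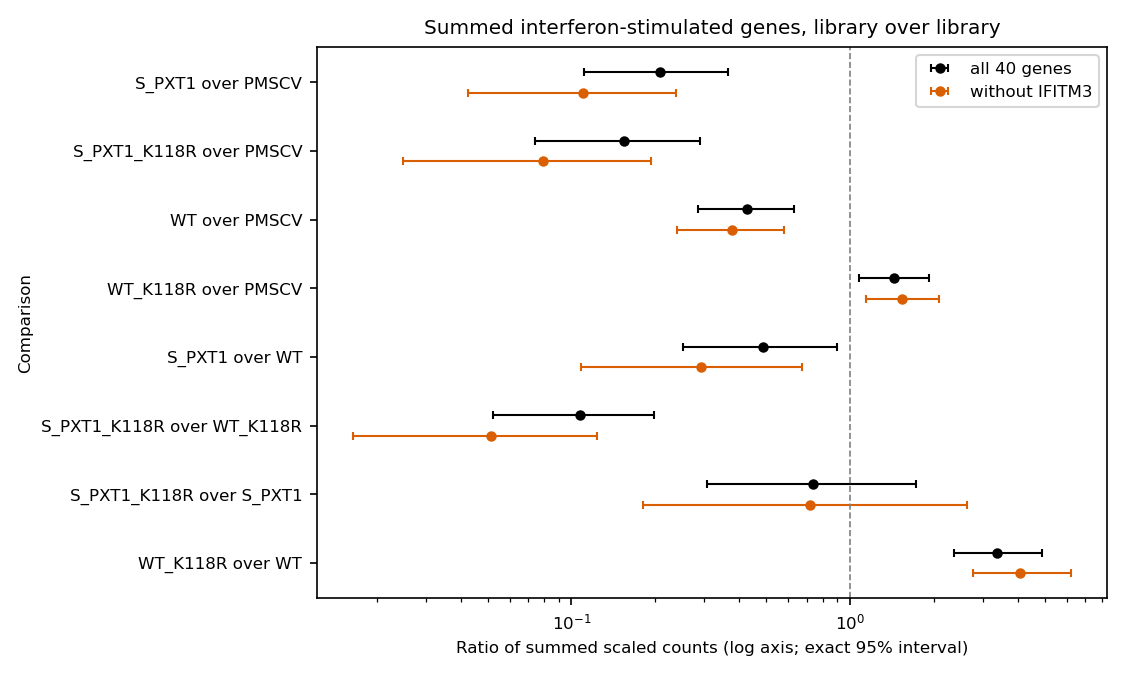
Ratio of the member sum between libraries on a log axis for the 8 comparisons, with exact 95% intervals for counting error as bars and a line at 1. WT_K118R over WT lies highest at 3.36 and S_PXT1_K118R over WT_K118R lowest at 0.11.

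The rest of the interferon pathway was read from lists. None of the 21 interferon ligand genes had a read in any library, which allows up to 3 counts each. Of the receptor and kinase list 2 genes are given. STAT3, which serves many cytokines, had 27 reads in PMSCV, 29 in WT, 30 in WT_K118R, 16 in S_PXT1 and 25 in S_PXT1_K118R, and all its intervals held 1. The kinase JAK1 had 3, 6, 11, 2 and 4 in that order.

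For the feedback and sensing genes the sums of the WT libraries lay close together. The 9 feedback genes, which damp cytokine signalling, had 98 reads in PMSCV, 137 in WT, 121 in WT_K118R, 66 in S_PXT1 and 67 in S_PXT1_K118R, and the ratio of WT_K118R over WT was 0.90 (0.695 to 1.15). PIAS1, a SUMO ligase, gave most of them, with 61, 91, 82, 43 and 34 reads, and SOCS3 had 10, 17, 16, 14 and 10. The 17 genes of nucleic acid sensing had 39, 29, 32, 8 and 20 reads, with a ratio of 1.12 (0.655 to 1.92). TRAF3, an adaptor of that pathway, had 16 reads in PMSCV and 16 in S_PXT1_K118R but 2 or 3 in the others.

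A further 54 interferon-induced genes outside the set gave 120 reads in PMSCV, 121 in WT, 197 in WT_K118R, 53 in S_PXT1 and 31 in S_PXT1_K118R. Their sum was 1.65-fold higher in WT_K118R than in WT (1.31 to 2.09) and 0.48 of PMSCV in S_PXT1 (0.344 to 0.674). Of 45 entering genes, 18 were 2-fold higher in WT_K118R than in WT, against 19.2% of all genes, and 6 were lower, against 20.9%. ADAR, an RNA-editing enzyme, had 20, 22, 29, 17 and 3 reads in PMSCV, WT, WT_K118R, S_PXT1 and S_PXT1_K118R, and so was low in 1 of the S_PXT1 libraries. EIF2AK2, the kinase PKR, had 10, 6, 9, 2 and 0.

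**Figure D5:**
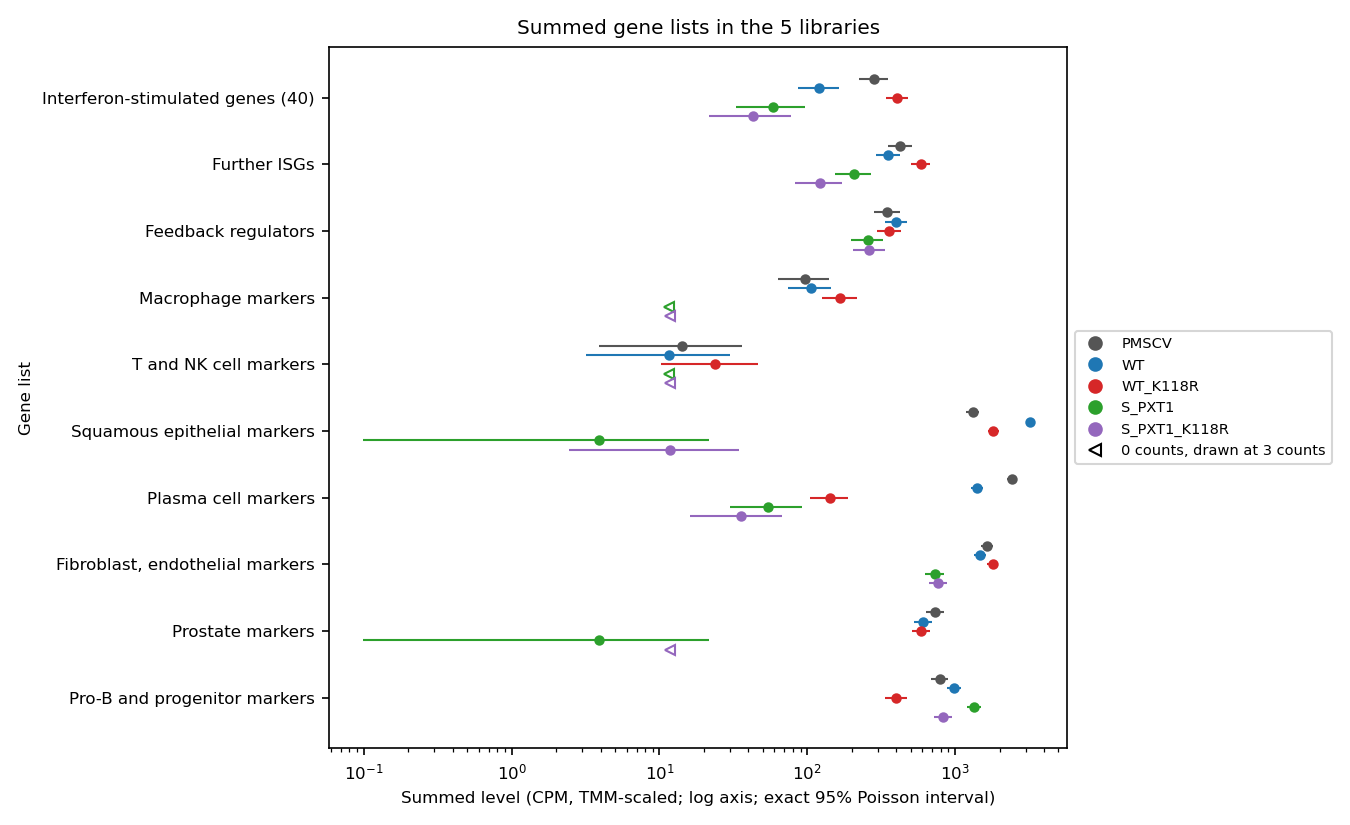
Summed level in CPM of the 40 genes, of 2 pathway lists and of the marker lists in each of the 5 libraries on a log axis, with exact 95% Poisson intervals as bars and open triangles at 3 counts for a sum of 0. The members and the macrophage markers are both highest in WT_K118R, at 403 and 166 CPM, and the macrophage intervals of WT_K118R and WT overlap. FCGR3A alone gave 12 macrophage reads there and 0 in every other library. The further interferon-induced genes, T and NK cell markers, and fibroblast and endothelial markers are also highest in WT_K118R, at 584, 23.7 and 1790 CPM.

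Markers of other cells moved with the members in part, and their part in the result was not tested. The macrophage markers had 27 reads in PMSCV, 36 in WT and 56 in WT_K118R, with 0 in both S_PXT1 libraries, or 96.0, 105, 166, 0 and 0 CPM. All 12 were at 0 in both S_PXT1 libraries, and AIF1 and MARCO in all 5. Of the 56 reads in WT_K118R, 12 came from FCGR3A, which had 0 in every other library. Of 10 entering macrophage markers, 3 were 2-fold higher in WT_K118R than in WT, against 19.2% of all genes. There 1 was lower, against 20.9%. T and natural killer cell markers had 4, 4, 8, 0 and 0 reads in the same order, with CD3D, CD3G, CD2, NKG7, GNLY and GZMB at 0 everywhere. Squamous epithelial markers had 371, 1099, 613, 1 and 3 reads, and plasma cell markers 684, 483, 48, 14 and 9. Prostate markers had 205, 208, 198, 1 and 0 reads, and fibroblast and endothelial markers 462, 503, 604, 187 and 195. The pro-B and progenitor list had 221, 335, 135, 343 and 212 reads in that order and was lowest in WT_K118R, at 0.41 of WT (0.332 to 0.500). Most of this fall from WT lay in SPI1, a blood cell transcription factor with 113, 173, 1, 139 and 128 reads. SPI1 was thus nearly unread in the library with the highest member sum. GATA2 of the same list had 96, 128, 123, 202 and 84 reads. Its ratio of WT_K118R over WT was 0.97 (0.754 to 1.26), and the list without SPI1 was not summed. The squamous, plasma and prostate lists were near 0 or far lower in the S_PXT1 libraries, as were most members.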

How the data were processed

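The authors deposited 1 table of read counts with FPKM values (counts per gene length and library size) beside them for 5 libraries, 1 per group, as the file headers show. Of tools, HISAT2 2.2.1, cutadapt 1.9 and FastQC appear in the submitters' processing notes without their roles. Not given in the sources used here are the counting tool, strand setting, build and annotation. There were 0 value columns without a library. Counts became CPM with TMM-scaled library sizes (edgeR 4.0.16, R 4.3.3). Ratios of summed counts carry exact 95% Clopper-Pearson intervals and levels exact Poisson intervals (scipy 1.17.1). The ratio intervals were tested on simulated Poisson counts, the model that they assume. Changed genes in the simulation were drawn from genes with more expected reads than any member had. Ratios with a 0 set to 3 counts were not simulated. A library at 0 counts was set to 3 counts for a ratio. Genes entered at a mean of 1 CPM, and a 2-fold difference was read on log2(CPM + 1). FPKM gave levels between genes. Members with at least 10 reads over the 5 libraries are given by library, the others by sum or zero pattern. Of each pathway list up to 3 genes with most reads are named. CXCL10, CXCL11, PARP9, RSAD2, IRF7, KLK3, IGHG1, the macrophage markers and the members in the 4 lower calls were named after their values were seen. The members and lists were chosen with earlier results of these data known. Mouse symbols and windows came from RefSeq (GRCm38.p6). Alternatives were other scalings (DESeq2 1.42.0 size factors, total counts, FPKM), filters, pseudocounts, thresholds and subsets of members. One gene of the receptor and kinase list, and the sums that hold it, are not reported here.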

Additional observations from a re-analysis of the deposited data

Results flagged for a closer look

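The 2 ratios of a K118R library over its counterpart lay on opposite sides of 1 on the member sum. WT_K118R over WT had a ratio of 3.36 (2.36 to 4.89), and S_PXT1_K118R over S_PXT1 a ratio of 0.74 (0.307 to 1.72). The difference between these 2 ratios was not tested, since each group is 1 library, and the interval of the second held 1, so no direction is established for it.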

How the results depend on the processing

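Each library stands alone, so leaving out a replicate did not apply. No paired analysis was possible because each group has 1 library and the groups share only the number 1. For the member sum, 52 of 59 alternative values kept their direction and moved by less than their interval. Without IFITM3, S_PXT1 over PMSCV was 0.110 and S_PXT1_K118R over WT_K118R 0.0514. Without members that overlap a same-strand model, S_PXT1 over PMSCV was 0.0982, S_PXT1_K118R over PMSCV 0.0495 and S_PXT1_K118R over WT_K118R 0.0318, and the membrane group in S_PXT1 over PMSCV was 0.244. Without the 7 members picked after seeing the data, WT_K118R over PMSCV turned to 0.934 and WT_K118R over WT was 1.92. With mouse symbols only, the group of SAMD9, SAMD9L, EPSTI1, XAF1 and GBP1 was 0.729 in WT_K118R over PMSCV and at most 0.568 in S_PXT1_K118R over WT_K118R. Scaling by total counts moved the median of all genes by over 0.1 on the log2 scale only against PMSCV, to -0.15 for WT and -0.16 for WT_K118R. At a mean of 5 CPM 13 members entered (30 otherwise), and the share of all genes stands in brackets. Members 2-fold lower were then 9 in S_PXT1 (43.3%) and 9 in S_PXT1_K118R (44.8%) over PMSCV, 8 in WT (17.2%; 1 higher, 12.2%) and 3 in WT_K118R (17.7%; 4 higher, 12%). They were 6 in S_PXT1 over WT (39.5%; 0 higher, 6.67%), 10 in S_PXT1_K118R over WT_K118R (42.4%), and 2 in WT_K118R over WT (14.4%; 7 higher, 13.1%). At 1.5-fold, members higher were 1 in S_PXT1_K118R (11.6%) and 17 in WT_K118R (26.9%) over PMSCV, 2 in S_PXT1_K118R over WT_K118R (11.1%) and 1 in S_PXT1_K118R over S_PXT1 (18.6%). At 3-fold S_PXT1_K118R over WT_K118R had 0 higher (6.82%), and with no filter, when 39 entered, WT over PMSCV had 4 higher (21.6%). With a pseudocount of 5 CPM, WT over PMSCV had 11 lower (12.6%), S_PXT1 over WT 0 higher (3.6%) and 4 lower (29.7%), S_PXT1_K118R over WT_K118R 0 higher (3.75%), S_PXT1_K118R over S_PXT1 1 lower (8.25%), and WT_K118R over WT 2 lower (13.1%). Depth limits single members, whose median total over 5 libraries was 4 reads.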

Other observations

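Not every member has a mouse gene of the same name. Of the 40 symbols, 33 match a mouse symbol in RefSeq, OAS1, OASL, HERC5 and GBP1 match a synonym only, and IFIT5, IFI6 and SAMD9 match neither. The 3 unmatched models still had 3 reads in PMSCV, 2 in WT, 5 in WT_K118R, 1 in S_PXT1 and 0 in S_PXT1_K118R. One macrophage marker, the Fc receptor gene FCGR3A, named after its values were seen, had 12 reads in WT_K118R and 0 in the other 4 libraries.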
